A study of Macaca mulatta with 449 samples.

Results

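AMPA and kainate receptors are glutamate-gated ion channels, and the 9 genes that encode their subunits were followed across the rhesus macaque brain. Members were the rows of the gene count table with the symbols *GRIA1* to *GRIA4*, which encode the 4 AMPA receptor subunits, and *GRIK1* to *GRIK5*, which encode the 5 kainate receptor subunits. All 9 were found among the 30807 genes of the table, each with 1 Ensembl identifier. The samples came from 8 healthy, untreated rhesus macaques (*Macaca mulatta*), 4 males and 4 females, with 2 young (up to 5 years) and 2 mid-aged (over 5 years) animals of each sex. From each brain, bulk tissue pieces were sequenced after removal of ribosomal RNA, and the count table holds 51 sub-regions with 1 library per sub-region and animal. The study assigned 31 of these sub-regions to the cerebral cortex and the other 20 to 15 further region groups. The animal was the replicate in every comparison (n = 8 unless stated), and animals carry the numbers 2, 3, 4, 6, 7, 8, 10 and 11 of the labels.

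AMPA receptors are assembled from the GRIA subunits and carry most of the fast excitatory current at central synapses. Receptors that hold the edited GRIA2 subunit let little calcium through, whereas those without it are calcium-permeable, and *GRIA1* and *GRIA4* take part in activity-dependent delivery of receptors to synapses. Kainate receptors act on both sides of the synapse and adjust transmitter release and excitability. GRIK1, GRIK2 and GRIK3 form channels on their own, while GRIK4 and GRIK5 bind kainate with high affinity but need a partner from the first set to make a working channel.

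Between 7784678 and 31083490 reads were counted on genes per sample (median 10698602). Levels are given as CPM, counts per 1000000 of a library size adjusted with the TMM method, and as the mean over the sub-regions of a region group in each animal. CPM does not correct for transcript length, so levels were compared between regions for 1 gene and not between genes. The depth was enough to count every member in nearly every sample. The lowest counts were 5 for *GRIK3* and 6 for *GRIA3*, and only *GRIK1* was at 0, in 2 samples, both from the pituitary (PIT). The summed markers of the cerebellum, striatum, thalamus, dopamine neurons, hypothalamus, olfactory bulb and pituitary were highest in the structure of that label, with dopamine neurons in the substantia nigra (SN). The summed level of *CBLN3*, *FAT2* and *GABRA6* was 2198 to 2709 CPM in the cerebellum (CB) and at most 65.4 CPM elsewhere. That of *PPP1R1B*, *DRD1* and *DRD2* was 2517 to 3215 CPM in the striatum (STR), although *DRD2* alone was at 287.4 CPM in the SN and 277.9 CPM in the STR, and that of *TH*, *SLC6A3* and *DDC* was 1335 to 2982 CPM in the SN but 25.99 to 480.2 CPM in the ventral tegmental area (VTA), where 1 sample lay below those of the olfactory bulb (64.2 to 146.0 CPM). The 4 anterior pituitary genes matched (*POU1F1*, *GHRHR*, *PRL* and *CGA*) summed to 30350 to 349900 CPM in the PIT. The dentate granule cell marker *PROX1* did not single out the hippocampus, with 24.2 CPM there, 36.5 in the corpus callosum and 21.3 in the thalamus. No marker of the hindbrain was matched by symbol, so the medulla oblongata (MO) and pons (PON) were not checked in this way. No such check is given for the amygdala, entorhinal and perirhinal cortex or globus pallidus. Of all libraries, 13 had a correlation below 0.95 with the median of the other 7 libraries of their sub-region, 7 of them cortical. The lowest was the MO library of animal 6 (r = 0.896), in which 5 neuron markers summed to 258 CPM against 3582 to 6831 CPM in the other animals. In bulk tissue, fewer cells that express a gene and less RNA per cell cannot be told apart.

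To ask where in the brain each subunit gene was expressed, all 51 sub-regions were first tested together with edgeR's quasi-likelihood F test, with the animal as a block. All 9 members differed among the sub-regions at FDR < 0.05, and so did 99.8% of the 17121 genes tested. By their F statistics, *GRIA4* (F = 103) and *GRIA1* (F = 100) stood in places 869 and 919 of all genes. *GRIK2* (F = 46.6), *GRIK5* (F = 41.9), *GRIK1* (F = 36.6), *GRIA2* (F = 33.7), *GRIK4* (F = 28.3) and *GRIA3* (F = 23.9) followed, and *GRIK3* (F = 6.98) stood in place 13577. The range between the highest and lowest region group mean was widest for *GRIA1* (264-fold) and narrowest for *GRIK5* (4.46-fold).

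Each of the 16 region groups was then compared with the mean of the other 15 on the log2 scale, with counts summed per region group and animal. A pair of member and region group was called at FDR < 0.05 and a fold above 2. Of the 144 pairs, 61 were called, 31 higher and 30 lower, or 42.4% against 17.2% of pairs over all genes tested. Over all genes, 9.34% of pairs were called higher and 7.9% lower. *GRIA1* was called in 9 region groups, *GRIK1* and *GRIK2* in 10 each, *GRIA2* and *GRIA3* in 8 each, *GRIA4* in 6, *GRIK3* and *GRIK5* in 4 each and *GRIK4* in 2.

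**Figure D1:**
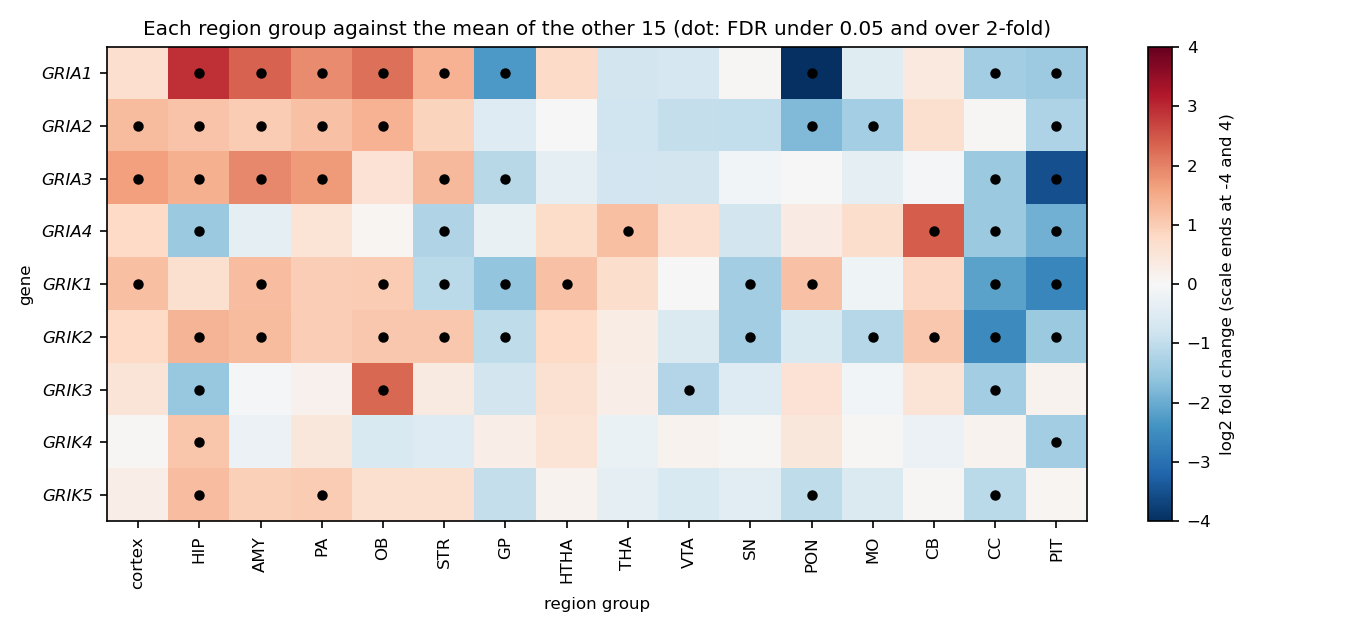
Log2 fold change of each subunit gene (rows) in each region group (columns) against the mean of the other 15 region groups, with the colour scale ending at -4 and 4 and a dot where the pair was called at FDR < 0.05 and over 2-fold (n = 8 animals). Higher values (red) gather in the hippocampus (HIP), amygdala (AMY) and olfactory bulb (OB) and lower ones (blue) in the corpus callosum (CC) and PIT, and the value of *GRIA1* in the PON, -5.69, lies beyond the end of the scale.

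*GRIA1* (ENSMMUG00000009287), a subunit central to synaptic plasticity in the hippocampus, had the widest range of the 9 members. In the HIP its level was 1000 CPM in the lowest animal, 1100 in the median and 1230 in the highest. The AMY had 648.3, 763.1 and 849.9 CPM, so the HIP samples lay above every sample of every other region group. Against the mean of the other 15 region groups, *GRIA1* was higher in the HIP (log2FC = 2.93 ± 0.14 (SE), FDR = 2.59e-38), AMY, OB, entorhinal and perirhinal cortex (PA) and STR. The order of the means was HIP (1102 ± 80.0 CPM (SD)), AMY (758.2), OB (692.2), PA (567.9) and STR (403.5), followed by the hypothalamus (HTHA, 273.5) and cortex (245.9). Among these, neighbours in the order differed at FDR < 0.05 only between STR and HTHA (log2 difference 0.59 ± 0.26, FDR = 0.0487). The HIP and AMY gave FDR = 0.121 in the fit, which gives all region groups 1 spread per gene, although HIP was higher in 8 of 8 animals and the ranges did not overlap.

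In the PON, *GRIA1* was at its lowest. Its level there was 2.51 CPM in the lowest animal, 3.66 in the median and 7.82 in the highest, below every sample of every other region group. The globus pallidus (GP), next above it, had 13.4, 34.3 and 84.0 CPM. The PON fell by 5.69 on the log2 scale (SE 0.32, FDR = 1.05e-32) against the mean of the other groups and lay 3.18 ± 0.32 below the GP (FDR = 1.43e-15). The 5 neuron markers summed to 7555 to 15810 CPM in the PON and 9380 to 10920 CPM in the cortex, but differed in direction. *SNAP25* (7660 against 6082 CPM) and *STMN2* (1668 against 843.5) were higher in the PON, and *SYT1* (1915 against 2691), *RBFOX3* (123.3 against 293.9) and *SYN1* (175.9 against 291.2) lower. The GABAergic markers were low there, with *GAD1* at 21.2 CPM, the lowest of the 16 means, *GAD2* at 11.6 and *SLC32A1* at 2.08 CPM, against 442.9, 297.9 and 64.5 CPM in the cortex. The part of cell types in the low *GRIA1* level was not tested. *GRIA1* was also lower in the GP, CC and PIT. The MO samples ran from 15.9 to 255.1 CPM, the lowest being the library of animal 6 with few neuron markers.

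*GRIA2* (ENSMMUG00000018272), which sets calcium permeability, varied less. The OB had 392.2 CPM in the lowest animal, 748.9 in the median and 1095 in the highest. In the cortex the values were 513.9, 727.0 and 771.4 CPM, and the ranges of the OB, cortex, PA, HIP and AMY all overlapped. These 5 region groups were called higher, with log2FC from 1.40 ± 0.10 in the OB (FDR = 1.68e-23) to 1.02 ± 0.11 in the AMY (FDR = 1.20e-14). The AMY call lay at the threshold and was lost without the animal block (0.997) and without animal 2, 4 or 11 (0.91 to 0.98). The lowest levels were those of the PON (73.6, 103.9 and 123.0 CPM), and *GRIA2* was called lower in the PON, where it fell by 1.75 on the log2 scale, in the MO and in the PIT. Of the 15 neighbours in the order of means, 2 pairs differed, the CB from the HTHA and the CC from the GP. In the CC, where neuron markers summed to 184 to 604 CPM, *GRIA2* was at 312.2 ± 72.7 CPM with a log2FC of 0.03 ± 0.12 (FDR = 0.812).

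*GRIA3* (ENSMMUG00000009054) was called higher in the AMY, PA, cortex, HIP and STR. It had 42.7 CPM in the lowest animal, 137.5 in the median and 196.6 in the highest in the AMY, and 68.1, 118.1 and 136.3 CPM in the cortex. The AMY was highest (log2FC = 1.911 ± 0.16, FDR = 8.68e-20), but its range held those of the PA, cortex, HIP and STR whole. In the PIT the level was 0.565 to 7.24 CPM, below all samples of the CC (10.3 to 20.6 CPM). The GP sample of animal 2, at 3.96 CPM, lay within the PIT range. In the PIT *GRIA3* fell by 3.51 on the log2 scale. It was also lower in the CC and GP, where the call was lost without animal 2 (log2FC = -0.97).

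*GRIA4* (ENSMMUG00000010987), the subunit of fast-gating receptors in cerebellar and brainstem circuits, was highest in the CB. There it had 298.2 CPM in the lowest animal, 360.7 in the median and 412.3 in the highest. The thalamus (THA), next in order, had 123.9, 174.1 and 187.4 CPM, so all CB samples lay above all other samples. The CB was higher than the mean of the other groups (log2FC = 2.42 ± 0.08, FDR = 6.66e-51) and than the THA (1.13 ± 0.15, FDR = 7.03e-11). The THA was the only other region group called higher (1.22 ± 0.10, FDR = 1.60e-21). *GRIA4* was lower in the STR, CC, HIP and PIT. In the HIP, where *GRIA1* was highest, *GRIA4* was at 25.2 to 30.6 CPM in all 8 animals and fell by 1.47 on the log2 scale (FDR = 8.10e-20).

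**Figure D2:**
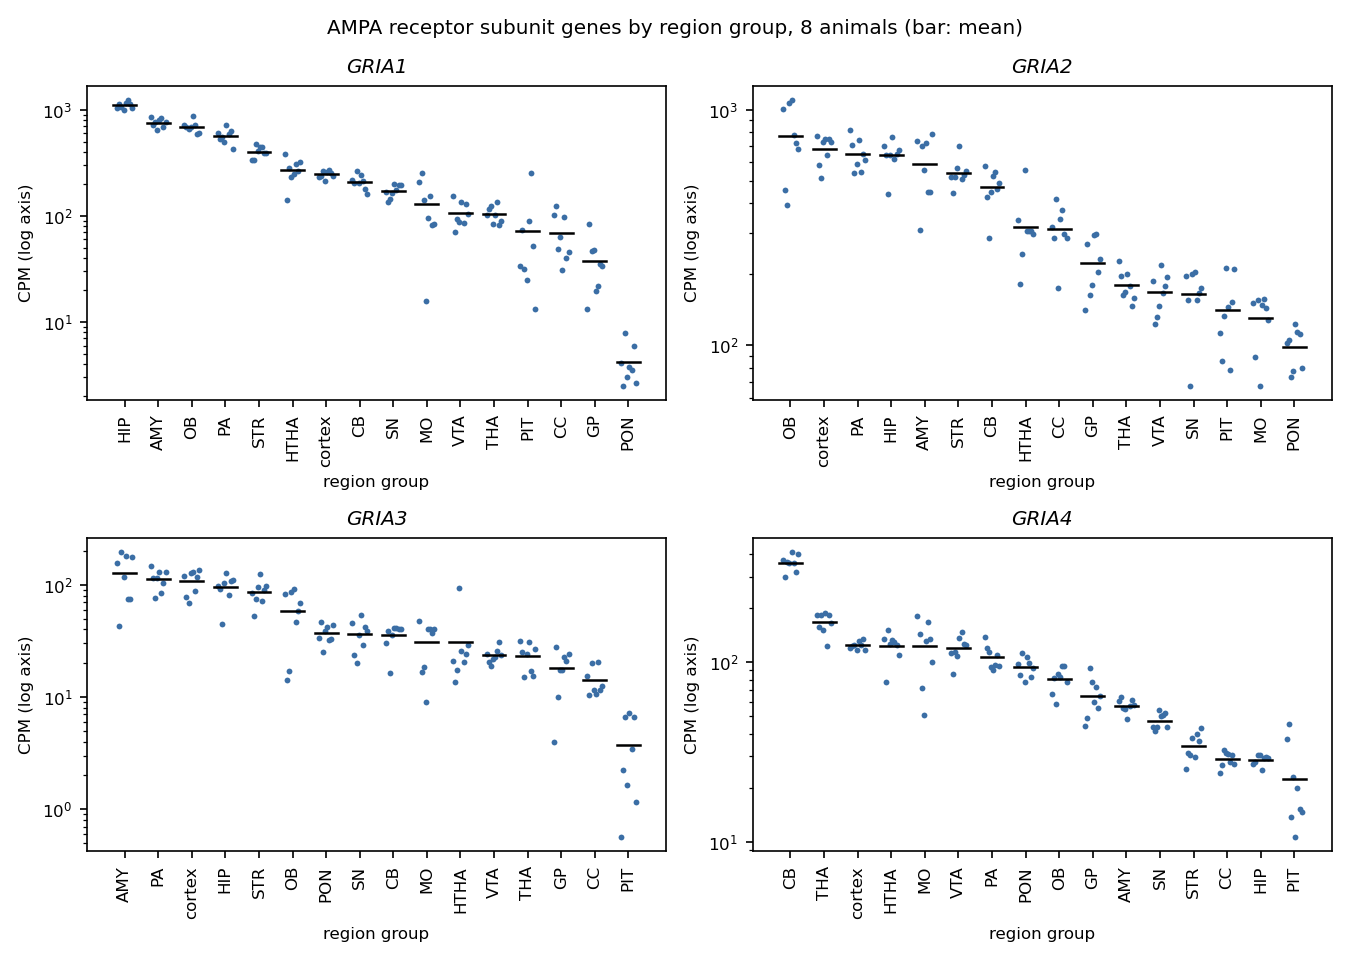
Levels of the 4 AMPA receptor subunit genes in CPM (log axis) in each of 16 region groups, ordered by mean, with 1 point per animal and a bar at the mean of 8 animals. *GRIA1* in the HIP and *GRIA4* in the CB stand clear of all other region groups, and *GRIA1* in the PON, at 2.51 to 7.82 CPM, stands below all of them.

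Of the kainate receptor subunits that form channels on their own, *GRIK1* (ENSMMUG00000004886) fell in small steps from its highest region groups downwards. Levels were 44.3 CPM in the lowest animal, 59.7 in the median and 82.3 in the highest in the AMY, and 42.4, 63.1 and 73.5 CPM in the PON. From the AMY at 60.7 CPM down to the MO at 25.6 CPM, no neighbours in the order of means differed at FDR < 0.05. Among neighbours only the MO and STR did (log2 difference 0.85 ± 0.30, FDR = 0.0088). Groups farther apart differed, and the MO lay below the AMY (-1.34 ± 0.30, FDR = 4.20e-05) and the PON (-1.28 ± 0.30, FDR = 0.000183). Over all 120 pairs of region groups, 75 differed at FDR < 0.05. *GRIK1* was called higher in the AMY (log2FC = 1.25 ± 0.19, FDR = 7.72e-09), cortex, PON (1.19 ± 0.19), HTHA and OB. In the OB the log2FC of 1.01 lay at the threshold, and the call was lost without the animal block (0.9994) and without animal 6, 7 or 10 (0.95 to 0.9988). It was called lower in the STR (13.6 ± 2.42 CPM), SN, GP, CC and PIT. The PON held *GRIK1* at a called high level and *GRIA1* at its lowest.

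*GRIK2* (ENSMMUG00000009856), a principal kainate subunit of hippocampal mossy fibre synapses, was highest in the HIP, with 145.9 CPM in the lowest animal, 206.9 in the median and 278.1 in the highest. The AMY had 150.9, 187.4 and 253.3 CPM, and the ranges of the 8 highest region groups overlapped. The HIP (log2FC = 1.37 ± 0.12, FDR = 2.68e-19), AMY, OB, STR and CB were called higher. In the OB, the value of animal 3 (340.1 CPM) lay above the other 7 (92.5 to 177.5 CPM), and without this animal the log2FC was 0.88 and the call was lost. The OB library of animal 3 stood apart (r = 0.947). *GRIK2* was called lower in the GP, MO, SN and PIT and most of all in the CC (11.2 to 27.8 CPM), where it fell by 2.55 on the log2 scale (FDR = 1.26e-25). The MO call was lost without animal 6 (log2FC = -0.98), and the GP call without the animal block (-0.98) or without any of animals 2, 7, 8, 10 and 11 (-0.97 to -0.94).

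*GRIK3* (ENSMMUG00000009679) stood apart in the OB. There it had 8.85 CPM in the lowest animal, 42.7 in the median and 50.9 in the highest. The HTHA, next in order, had 4.73, 12.1 and 21.7 CPM. The OB was higher in 8 of 8 animals than the HTHA (log2 difference 1.59 ± 0.32, FDR = 1.13e-05) and was the only group called higher against the mean of the others (2.31 ± 0.19, FDR = 7.50e-21). The 2 lowest OB values were those of animals 3 and 4, whose OB libraries stood apart. *GRIK3* was called lower in the VTA, CC and HIP, and its HIP level of 0.945 to 6.45 CPM was the lowest of the 16 means.

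The high-affinity subunit genes had narrower ranges. *GRIK4* (ENSMMUG00000022347) was at 29.1 CPM in the lowest animal, 38.8 in the median and 46.97 in the highest in the HIP, and at 19.9, 26.9 and 35.5 CPM in the HTHA. The HIP was called higher (log2FC = 1.12 ± 0.07, FDR = 5.83e-28) and differed from the HTHA (0.54 ± 0.11, FDR = 2.34e-05). The PIT, at 3.53 to 11.7 CPM, was the only region group called lower and fell by 1.38 on the log2 scale. The 13 neighbouring pairs between the HTHA and the OB in the order did not differ at FDR < 0.05. The ends of this stretch did, with the OB below the HTHA (log2 difference -1.09 ± 0.12, FDR = 3.74e-14). Over all 120 pairs of region groups, 92 differed. In the CC, where 7 other members were called lower, *GRIK4* was at 20.4 ± 3.83 CPM and did not pass (FDR = 0.161).

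*GRIK5* (ENSMMUG00000017431) was at 93.9 CPM in the lowest animal, 109.5 in the median and 157.7 in the highest in the HIP, and at 81.5, 96.9 and 117.4 CPM in the PA. The HIP (log2FC = 1.25 ± 0.07, FDR = 4.92e-34) and PA (1.02 ± 0.07, FDR = 8.18e-26) were called higher. The PON (16.1 to 32.9 CPM) and CC (19.4 to 32.4 CPM) were called lower, falling by 1.02 and 1.08 on the log2 scale. The PA and PON calls lay near the 2-fold threshold and were lost without animal 11 (0.9953) and without animal 4 (-0.94), in that order. In the PIT, *GRIK5* was at 53.7 ± 7.24 CPM and did not pass the test (FDR = 0.393), while 7 other members were called lower there.

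**Figure D3:**
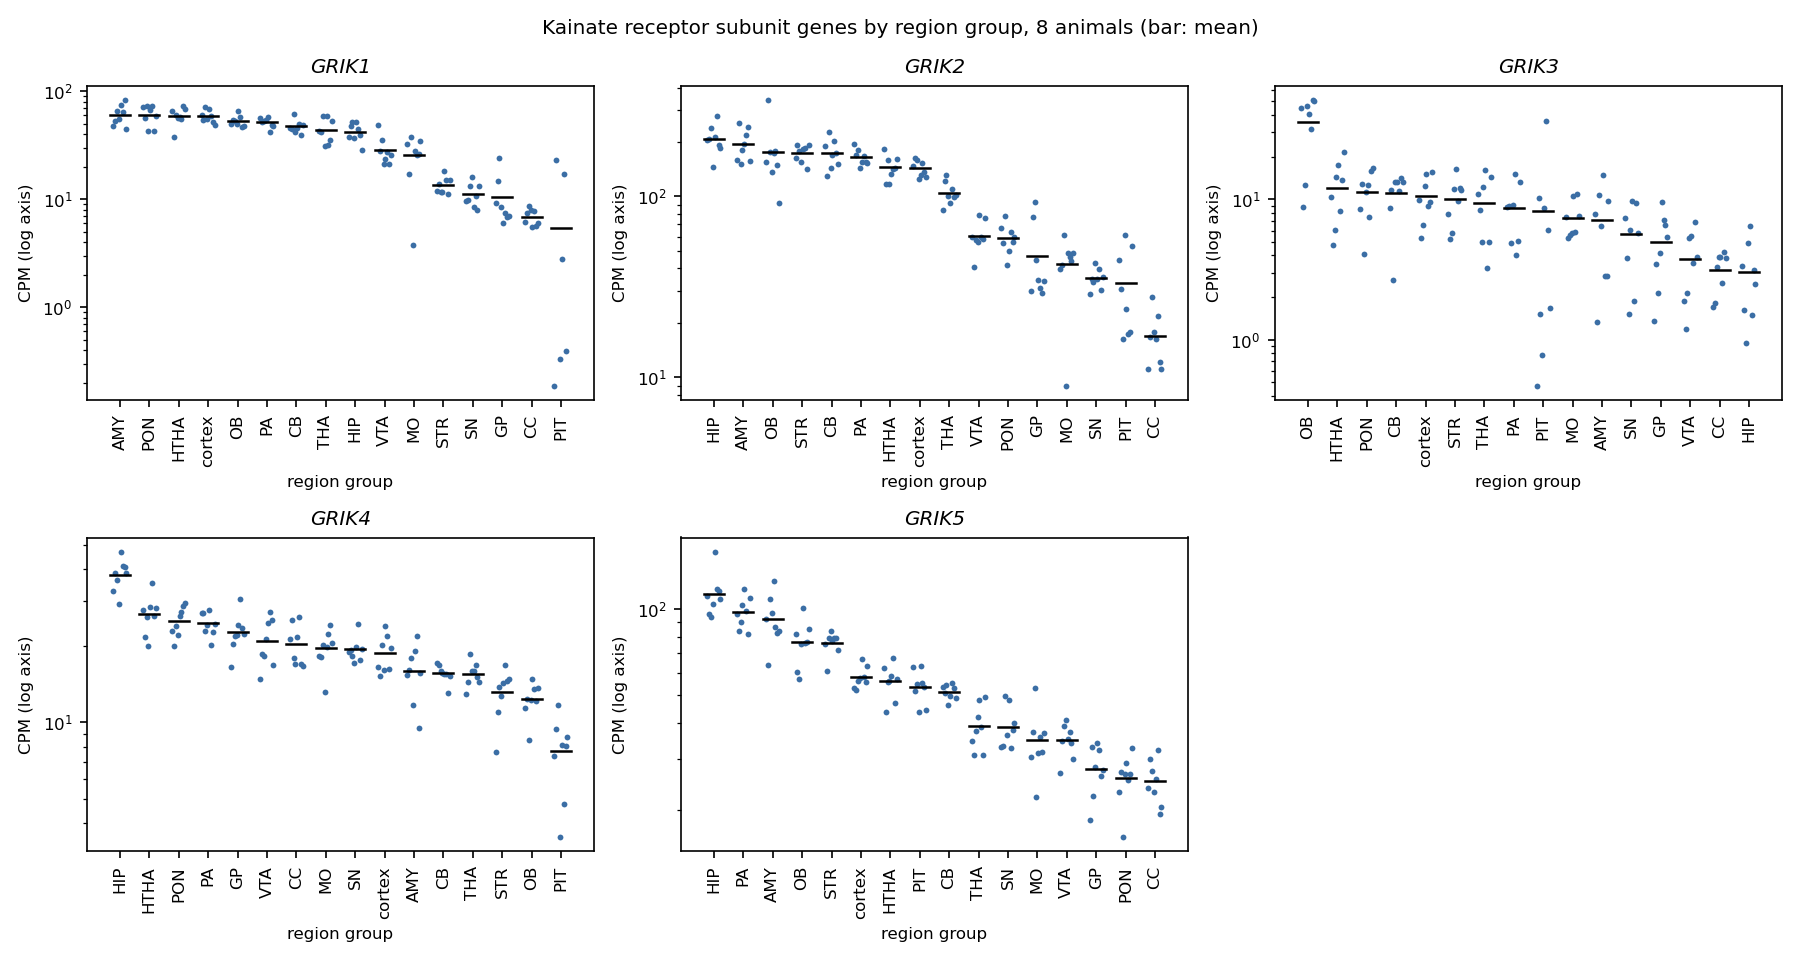
Levels of the 5 kainate receptor subunit genes in CPM (log axis) in each of 16 region groups, ordered by mean, with 1 point per animal and a bar at the mean of 8 animals, except that the 2 PIT samples with *GRIK1* at 0 have no point. *GRIK1* runs nearly flat over the first groups and falls to a median of 0.364 CPM in the PIT, and *GRIK3* in the OB stands above every sample of the other groups in 5 of 8 animals.

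Read by region group, the HIP had the most calls, 6 members higher (8.93% of all genes were higher there) and 2 lower (5.97%). The higher ones were *GRIA1*, *GRIA2*, *GRIA3*, *GRIK2*, *GRIK4* and *GRIK5*, and the lower ones *GRIA4* and *GRIK3*. In the OB and AMY 5 members each were higher (10.4% and 9.76% of all genes), in the PA 4 (10.0%) and in the cortex *GRIA2*, *GRIA3* and *GRIK1* (10.0%). The STR had *GRIA1*, *GRIA3* and *GRIK2* higher (9.0%) and *GRIA4* and *GRIK1* lower (5.18%). The CB had *GRIA4* and *GRIK2* higher (11.2%), the THA *GRIA4* (6.48%) and the HTHA and PON *GRIK1* (6.71% and 7.26%). The lower calls lay in the CC with 7 members (18.2%), PIT with 7 (20.6%), GP with 4 (9.23%), PON with 3 (8.09%), MO with 2 (2.78%), SN with 2 (4.76%) and VTA with 1 (3.45%). The CC and PIT also had the lowest neuron marker sums among the region group medians, 336 and 451 CPM. Oligodendrocyte markers summed to 90040 to 118200 CPM in the CC and 16.04 to 50.3 CPM in the PIT. The part of cell composition in the calls was not tested.

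Within the HIP, the dentate gyrus (DG) was compared with the hippocampal fields CA1 and CA3. By the F test, *GRIK1*, *GRIK2*, *GRIK4* and *GRIA4* differed among the 3 sub-regions at FDR < 0.05, as did 32.9% of all genes. In the CA3 *GRIK1* was at 30.5 to 51.3 CPM. *GRIK1* was higher in the CA1 (57.8 ± 19.2 CPM) than in the DG (24.9 CPM) by 1.197 ± 0.17 on the log2 scale (FDR = 8.25e-05), the only pair above 2-fold. Of all genes, 4.99% had such a pair, 2.81% in this direction of this pair, and without the fold 31.6% differed between CA1 and DG and 32.4% between CA3 and DG. *GRIK2* went the other way. Its DG mean was 274.6 CPM, against 184.4 in the CA1 and 167.1 in the CA3, which lay below the DG by -0.61 ± 0.12 (FDR = 0.00108) and -0.78 ± 0.12 (FDR = 0.000228). *GRIK4* was at 27.8 CPM in the DG and higher in the CA1 (43.9 CPM, log2 difference 0.65 ± 0.11, FDR = 0.00041) and CA3 (42.7 CPM, 0.61 ± 0.12, FDR = 0.000737). *GRIA1* had 1156 CPM in the DG, 1051 in the CA1 and 1100 in the CA3, with no difference detected (FDR = 0.192). No member differed between CA3 and CA1 at FDR < 0.05, as for all but 0.0968% of genes, and the lowest member FDR was 0.721.

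Within the STR, 8 of 9 members differed among the accumbens nucleus (ACb), caudate nucleus (CN) and putamen (PUT) by the F test, all but *GRIK3* (FDR = 0.698), and 56.9% of all genes did. *GRIA1* had the largest difference. Its mean was 555.5 CPM in the ACb, 387.4 in the CN and 267.5 in the PUT. The PUT lay below the ACb by -1.06 ± 0.09 (FDR = 1.11e-08), the only pair above 2-fold. Of all genes, 12.4% had such a pair, 5.87% in this direction of this pair, and without the fold 45.3% differed between PUT and ACb, 35.2% between CN and ACb and 30.2% between PUT and CN. Without animal 6 this difference was -0.99, which left 0 members above 2-fold. *GRIA4* was also highest in the ACb (45.3 CPM) and lower in the CN (25.7) and PUT (31.7). *GRIK2* was lower in the CN (134.9 CPM) than in the ACb (197.1) and PUT (189.2), and *GRIA3* was higher in the CN (107.7 CPM) than in the ACb (69.2, log2 difference 0.72 ± 0.18, FDR = 0.00483). *GRIA2* was lower in the PUT (433.8 CPM) than in the CN (615.0) and ACb (572.7).

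Between the cerebellum vermis (CBV) and cerebellar cortex (CBC) no member was called by edgeR, where 0.959% of all genes passed FDR < 0.05 and 0.287% were also above 2-fold, and DESeq2 called none either. Only *GRIK2* had an unadjusted p under 0.05 in edgeR. It had FDR = 0.0566, a log2 difference of 0.32 ± 0.07, and a mean of 192.6 CPM in the CBV and 154.2 CPM in the CBC. The CBC library of animal 4 stood apart (r = 0.906), with *GRIA2* at 93.2 CPM against 388.8 to 562.5 CPM in the others, which widens the spread of this comparison.

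In the cortex, sub-regions were compared with one another over 248 samples. By the F test over 31 sub-regions, 8 members differed, all but *GRIA2* (FDR = 0.0826), against 77.2% of all genes. *GRIA1* had the largest F of the members (F = 115). Its mean ran from 452.9 CPM in the anterior cingular gyrus (ACG) to 95.6 CPM in the posterior superior occipital gyrus (pSOG), a 4.74-fold range. The ACG samples lay between 380.1 and 564.6 CPM and the pSOG samples between 76.6 and 120.6 CPM. The temporal polar gyrus (428.4 CPM), insula (394.9) and ventromedial prefrontal cortex (385.6) followed the ACG, and the inferior occipital gyrus (108.8) and anterior superior occipital gyrus (126.2) were next to the pSOG. The pSOG was also lowest for *GRIA4*, *GRIK1*, *GRIK2* and *GRIK5*, with ranges over the cortex of 2.04-fold, 2.04-fold, 2.60-fold and 2.16-fold. *GRIA2* spanned 1.49-fold.

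Counts were then summed by lobe, and each of 5 lobes was compared with the mean of the other 4. Of the 45 pairs of member and lobe, 26 were called at FDR < 0.05, against 30.3% of pairs over all genes, and 5 had an absolute log2FC above 0.5, against 6.28%. In the occipital lobe 6 members were lower and 0 higher, where 27.1% of all genes were lower and 10.7% were lower by over 0.5. *GRIA1* in the occipital lobe was at 94.4 CPM in the lowest animal, 110.4 in the median and 126.5 in the highest. The parietal lobe had 169.7, 198.4 and 223.2 CPM and the frontal lobe 257.4, 306.1 and 324.6 CPM, so the 8 occipital samples lay below all samples of these lobes, and also below those of the temporal lobe and limbic cortex. The occipital log2FC of *GRIA1* was -1.24 ± 0.04 (FDR = 2.39e-24), that of *GRIK2* was -0.82 ± 0.04, that of *GRIK1* was -0.65 ± 0.04 and that of *GRIA4* was -0.52 ± 0.04. *GRIA3* (-0.35) and *GRIK5* (-0.48) were lower by less. The occipital ranges of *GRIK2* (62.9 to 107.6 CPM) and *GRIA4* (81.2 to 98.5 CPM) also lay below those of every other lobe.

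The frontal lobe had 7 members higher and 0 lower (23.8% of all genes were higher), with *GRIA1* by 0.60 ± 0.03 on the log2 scale (FDR = 4.01e-17), a size that 5.63% of all genes reached. The temporal lobe had 6 higher (13.7%), with *GRIK2* at 165.9 CPM and *GRIA4* at 145.6 CPM the largest of the 5 lobe means. The limbic cortex had 4 higher (9.43%), and the parietal lobe had *GRIA1*, *GRIK4* and *GRIK5* lower (5.36%). *GRIK4* in the occipital lobe, at 19.5 ± 3.73 CPM, had a log2FC of 0.08 ± 0.05 (FDR = 0.132), and neither *GRIA2* nor *GRIK3* was called in any lobe. Without the animal block 15 pairs were called in place of 26.

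**Figure D4:**
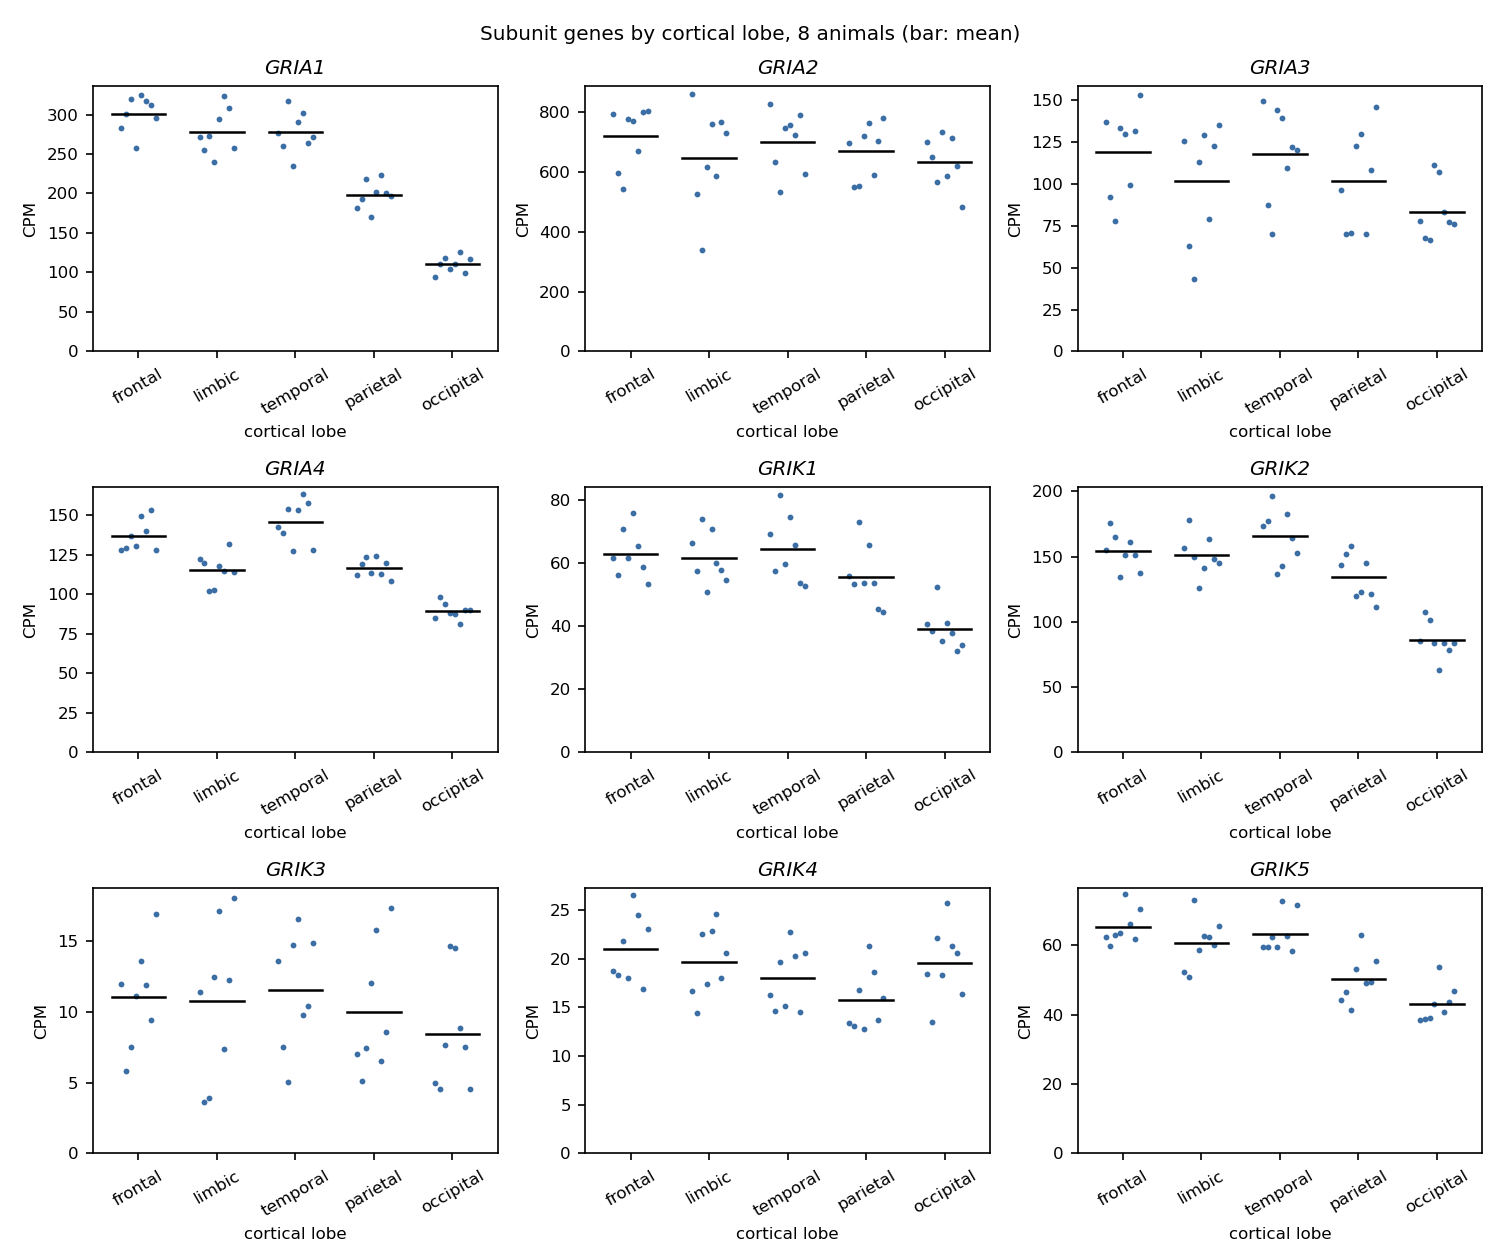
Levels of the 9 subunit genes in CPM in the 5 cortical lobes, with 1 point per animal, a bar at the mean of 8 animals and axes that start at 0. *GRIA1* falls from 257.4 to 324.6 CPM in the frontal lobe to 94.4 to 126.5 CPM in the occipital lobe, while *GRIA2* and *GRIK3* overlap in all lobes.

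Since GRIA2 governs the calcium permeability of AMPA receptors, its counts were set against the summed counts of *GRIA1*, *GRIA3* and *GRIA4* in each sample. The log2 ratio within a library is free of scaling but not corrected for transcript length, so its zero has no meaning and its differences between regions also depend on which of the other genes makes up the sum. In the cortex the ratio was 0.50, with animals between 0.17 and 0.70. Each other region group was compared with the cortex of the same animals by an exact sign-flip permutation test, two-sided, in which 8 animals can give no p below 0.00781. In 13 of 15 region groups the ratio differed (adjusted p = 0.00901), in 12 lower than in the cortex and in 1 higher, in 8 of 8 animals each. Only the CC, GP and PIT had a higher mean ratio than the cortex, so these counts depend on the cortex as the reference. Fewer region groups differed from the mean of the other 15. A ratio of RNA counts does not show the composition of receptors.

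The largest differences from the cortex were those of the MO (ratio -1.02 ± 0.63 (SD), difference -1.53), HIP (-0.94 ± 0.21, difference -1.45), AMY (difference -1.24) and THA (-1.22). The MO animals ran from -2.22 to -0.17, with a median of -0.83 against -0.89 in the HIP, and without animal 3 the MO difference was -1.36 and that of the HIP -1.45. The -0.17 was that of animal 6, whose MO library stood apart with few neuron markers. The HIP difference had the smallest spread between animals (SD 0.08). The smallest of the 12 was that of the STR (-0.46 ± 0.12). The CC was higher than the cortex (1.49 ± 0.56, difference 0.99 ± 0.65). The GP was higher in 6 of 8 animals and gave adjusted p = 0.0586 by this exact test. The PIT samples ran from -1.83 to 2.86. The numerator and the denominator both moved: in the HIP *GRIA2* was called higher and *GRIA1* more so, while in the THA *GRIA4* was called higher and *GRIA2* was at 180.2 CPM.

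**Figure D5:**
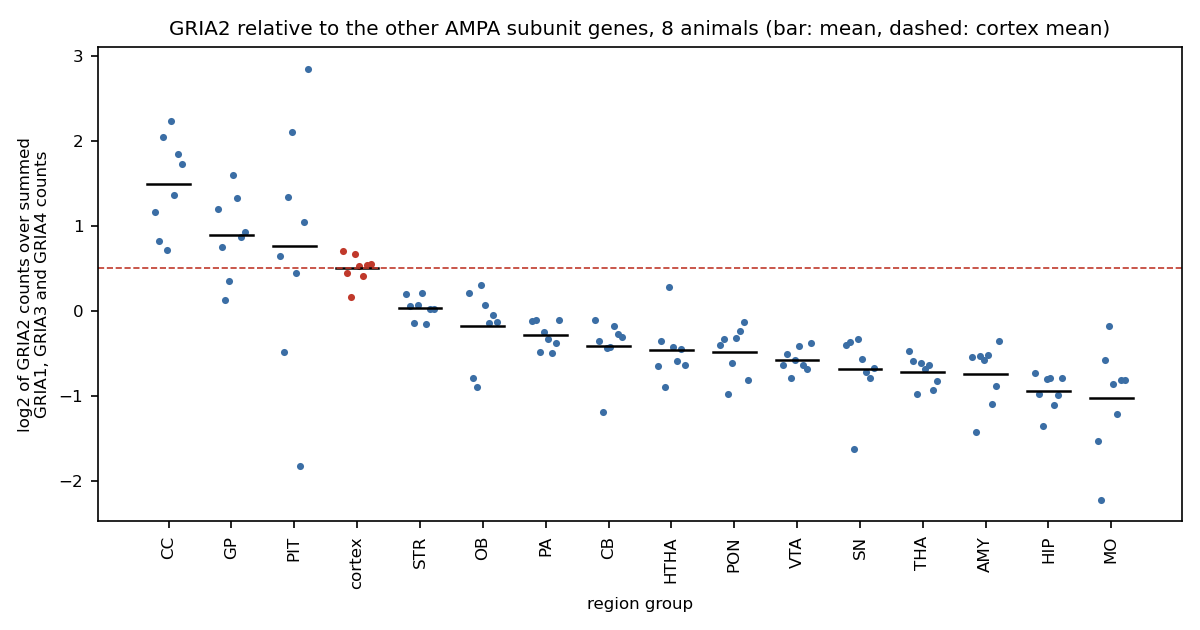
Log2 ratio of *GRIA2* counts to the summed counts of *GRIA1*, *GRIA3* and *GRIA4* by region group, with 1 point per animal, a bar at the mean of 8 animals, cortex points in red and the cortex mean (0.50) dashed. In 12 region groups all 8 animals lay below their own cortex value, and in the CC all 8 lay above it.

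The spread between animals was not the same for all members. The median coefficient of variation over the 16 region groups was 47.4% for *GRIK3*, 28.98% for *GRIA3* and 21.5% for *GRIA2*, and 14.2% to 20.3% for the other 6. *GRIK3* was above its region group mean in 16 of 16 region groups in animal 7 (mean deviation 0.69 on the log2 scale), in 4 of 16 in animal 3 (-0.44) and in 2 of 16 in animal 4 (-0.69). *GRIA3* deviated in the same direction in these animals, by 0.38, -0.35 and -0.40. *GRIA4* deviated by at most 0.08 in any animal. Animal 4 provided 6 of the 13 libraries that stood apart.

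Mid-aged and young animals were compared in each region group with sex as a covariate, and females and males with age stage as a covariate, 4 against 4 animals each. Of the 144 pairs of member and region group, 0 were called for age and 0 for sex by edgeR at FDR < 0.1 and a fold above 2, where 0.021% and 0.108% of all genes were called. At an unadjusted p under 0.05 there were 15 pairs for age and 9 for sex, or 10.4% and 6.25% of pairs against 6.02% and 3.73% over all genes. DESeq2 called 3 pairs for age and 2 for sex, all in the PIT, and called 0.334% and 0.416% of pairs over all genes. Its unadjusted p was under 0.05 in 14 and 10 pairs (6.47% and 4.08% over all genes). The 4 animals of each group did not overlap in 5 pairs for age (3.47% of pairs, 3.8% over all genes) and 4 for sex (2.78%, 2.0% over all genes).

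The lowest FDRs for both factors lay in the PIT. *GRIK2* was at 30.8 to 61.3 CPM in the 4 mid-aged animals and 16.3 to 24 CPM in the 4 young ones (log2 difference 1.32 ± 0.24, FDR = 0.105 by edgeR and 8.20e-05 by DESeq2). *GRIA3* was at 0.565 to 2.25 CPM in mid-aged and 3.47 to 7.24 CPM in young animals (-2.08 ± 0.42, FDR = 0.171 by edgeR and 0.00272 by DESeq2). Neither pair of groups overlapped, as for 3.89% of all genes in the PIT. Without animal 7, edgeR called 0.398% of pairs over all genes for age and 0.966% for sex. Of the members it called 5 pairs for age, namely *GRIK2*, *GRIA1* and *GRIA3* in the PIT and *GRIK3* in the PA and THA, and 5 for sex, of which 4 lay in the PIT.

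The sex difference varied among region groups for 1 member by the F test of the interaction with edgeR at FDR < 0.05, *GRIK1* (FDR = 0.000294), where 0.92% of all genes passed. It rested on the PIT. There *GRIK1* was at 0, 0, 0.331 and 0.398 CPM in the 4 females and at 0.188, 2.804, 17.05 and 22.8 CPM in the 4 males, with 1 male among the females' values. Without the PIT no member passed in edgeR (0.122% of all genes did), *GRIK1* had FDR = 1 and only *GRIA4* had an unadjusted p under 0.05. For age, 0 members passed FDR < 0.05 in edgeR (2.74% of all genes did), and *GRIK2* (FDR = 0.0792) and *GRIA4* (FDR = 0.212) had an unadjusted p under 0.05 in that fit. DESeq2 passed *GRIK2* for age (4.56% of all genes) and *GRIK1* and *GRIA1* for sex (2.26%). The PIT samples differed in other genes too. The 4 anterior pituitary genes summed to 349900 and 238300 CPM in animals 6 and 11, both mid-aged females, and to 30350 to 85290 CPM in the other 6, and hypothalamic markers reached 23.9 CPM in animal 8, a library that stood apart, against 0 to 6.37 CPM in the others. Their part in the PIT differences was not tested.

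AMPA receptors work with auxiliary subunits that control trafficking and gating, and kainate receptors with the NETO proteins and C1q-like linkers. Of 14 measured genes of AMPA receptor auxiliaries and biogenesis, over 16 region groups, 44 of 224 pairs were called higher and 45 lower. The 4 kainate auxiliary genes (*NETO1*, *NETO2*, *C1QL2* and *C1QL3*) gave 22 higher and 22 lower of 64, and 10 scaffold, trafficking and pentraxin genes gave 36 and 29 of 160. The 3 RNA editing genes gave 8 and 4 of 48, while all genes gave 25521 and 21605 of 273376.

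In the HIP 7 of 14 AMPA auxiliary genes, 3 of 4 kainate auxiliary genes and 5 of 10 scaffold genes were higher, with medians of 1.09, 3.03 and 0.98 on the log2 scale against -0.01 over all genes and with 8.93% of all genes higher. The AMY had 5, 3 and 5 higher (9.76% of all genes) and the PA 7, 3 and 5 (10.0%). In the cortex all 4 kainate auxiliary genes were higher (10.0%). In the CC 11, 3 and 7 genes were lower (18.2%) and in the PIT 9, 4 and 5 (20.6%). In the CB, 4 AMPA auxiliary genes were higher (11.2%) and 6 lower (18%), and 3 of 4 kainate auxiliary genes were lower.

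The called gene of these lists with the largest change is given for each region group. *C1QL3*, a synaptic organizer that links kainate receptors, was at 308.7 to 415.2 CPM in the HIP (log2FC = 5.08 ± 0.17), and led also in the AMY (5.42) and PA (4.43). It fell by 5.03 in the SN, with a mean of 0.532 CPM. *SHISA8*, of the SHISA family of AMPA receptor auxiliaries, led in the CB (19.9 to 70.5 CPM, 5.87 ± 0.12) and OB (4.82 ± 0.14). *CACNG3*, a transmembrane AMPA receptor regulatory protein, led in the cortex (163.1 to 224.9 CPM, 3.36 ± 0.14) and STR (2.93 ± 0.15).

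*NPTX1* and *NPTX2* encode neuronal pentraxins that cluster AMPA receptors. *NPTX1* was at 1.08 to 6.04 CPM in the THA, where it fell by 4.90 on the log2 scale, and in the GP it fell by 2.89. *NPTX2* was at 0 in the median animal of the PON and at most 0.35 CPM, against a mean of 48.8 CPM over the other region groups. Both were called higher elsewhere, *NPTX1* in the MO (1.84 ± 0.18) and *NPTX2* in the HTHA (1.89 ± 0.19). The MO values of *NPTX1* ran from 26.8 to 596.1 CPM, and their mean (210.2 CPM) lay below that of the other groups (300.1 CPM), since the log2FC compares means of logs. *NSF*, a vesicle fusion ATPase that binds GRIA2, fell by 3.14 in the CC. *C1QL2* led in the VTA (1.62 ± 0.18), and *GSG1L* led in the PIT, at 0 in the median animal and at most 0.11 CPM. *ADARB1*, whose enzyme edits *GRIA2* RNA and which is named after its values were seen, was called higher in the CB (173.2 CPM, 1.82 ± 0.13), PON (172.4 CPM, 1.78 ± 0.13), THA and OB and lower in the CC (-2.26) and PIT (-2.83).

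The pattern over sub-regions was compared between genes by Pearson's r of the mean log2(CPM + 1) over the 51 sub-regions, which share animals and libraries, for 12121 genes with a symbol and a mean of at least 1 CPM. The gene most like *GRIA1* was another member, *GRIK5* (r = 0.889). Next among member pairs were *GRIA2* and *GRIA3* (r = 0.829) and *GRIK2* and *GRIK5* (r = 0.760), and the lowest was that of *GRIK3* and *GRIK4* (r = -0.331). *GRIA1* and *GRIA4* had r = -0.08.

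After *GRIK5*, *GRIA1* was nearest to *PCDHGB5* (r = 0.857) and *CHD3* (0.846). *GRIA2* was nearest to *UTP25* (0.939), *SIPA1L1* and *CRACDL*, *GRIA3* to the GABA-A receptor gene *GABRA2* (0.942), *CELSR2* and *KCNN1*, and *GRIA4* to *SEPTIN6* (0.863), *SLC9A3* and *LRP8*. *GRIK1* was nearest to the glutamate receptor genes *GRIN3A* (0.898) and *GRM2* and to *CA10*. *GRIK2* was nearest to *AGAP2* (0.918), *ZNF415* and *DLG4*, which encodes the synaptic scaffold PSD-95. The nearest genes of *GRIK3* were *DENND5B* (0.733), *FSTL4* and *SLC8A3*. Those of *GRIK4* were *SBF1* (0.717), *ALDH1L1* (0.708) and *FN3KRP*, and those of *GRIK5* were *CHD3* (0.936), *CPT1C* and *PLPPR4*. The mean log2 level of 5 neuron markers over the same 51 sub-regions had its highest correlation with *GRIK1* (r = 0.866) and *GRIA3* (0.816) and its lowest with *GRIK4* (0.171), with 0.313 for *GRIA1*.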

How the data were processed

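RNA-seq counts of 408 samples (51 sub-regions of 8 animals) were used. By the study's methods and processing notes, the authors checked reads with FastQC 0.11.4, trimmed poor ones with Trim Galore 0.4.4, mapped them to Mmul 8.0.1 with HISAT2 2.0.5 and counted them on Ensembl genes with HTSeq 0.6.1. The deposited counts are whole numbers per gene and library, without normalization. The library kit kept strand, but how HTSeq treated strand and overlaps is not given in the sources used here, so reads of overlapping genes are uncertain. Symbols were matched for 17572 of 30807 genes. No transcript lengths or coordinates of this build were used, so levels are not per length.

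Tests used edgeR 4.0.16 (R 4.3.3) with TMM, filterByExpr, the quasi-likelihood test and Benjamini-Hochberg adjustment over all genes tested (FDR). Counts were summed per region group or lobe and animal, and the animal was a block in all tests between regions. SE is the absolute log2FC divided by the square root of F. Same-numbered samples come from 1 animal, which pairs them: their deviations from the sub-region means had a mean correlation of 0.4 over 14771 genes, against -0.0544 between animals, and 875 of 960 pairs were above 0.1. Figures and levels used Python 3.11.15, pandas 2.3.3, numpy 2.4.6 and matplotlib 3.10.9. A log2(CPM + 1) scale served for correlations. The scripts were tested on simulated data.

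The members, gene lists and tests were chosen with earlier results of these data known. All 9 members are named. Of the auxiliary, scaffold and editing lists, each region group has 1 gene named, the called gene with the largest absolute log2FC whose higher mean reached 1 CPM, and for each member the 3 most like genes. Alternatives were DESeq2 1.42.0, its size factors in edgeR, a count above 1 in at least 3 samples as the filter, no animal block, sub-region coefficients in place of sums, a fold above 4, a pseudocount of 0.1, and each animal left out. Runs without the 13 libraries that stood apart and without the pituitary were chosen after seeing the data. The 8 midbrain samples, the 33 ATAC-seq samples and the assembled transcripts were not analysed here. Precision is set by 8 animals and by counts of 7784678 to 31083490 per sample.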

Additional observations from a re-analysis of the deposited data

Results flagged for a closer look

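Of 144 sets of 8 animals for a member in a region group, 15 had a highest or lowest animal whose gap to the nearest other was over Dixon's 95% critical share of the whole range, and of 72 sets for sub-regions of the hippocampus, striatum and cerebellum 7 did, where chance gives about 1 in 20. Region group sums hold the sub-regions, so the sets are not independent. The rate of 1 in 20 holds for normally distributed values, whereas these are CPM and include libraries that stood apart. The share over all genes is not given here, so the counts do not show more such values in the members than in other genes.

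Animal 4 had 9 of the 22 values. In the cerebellar cortex, whose library of animal 4 stood apart (r = 0.906), *GRIA2* was at 93.2 CPM (others 388.8 to 562.5), *GRIA3* at 8.09 (32.8 to 43.6), *GRIK3* at 1.05 (9.34 to 15.3) and *GRIK5* at 69.5 (43.2 to 54.8). Over the whole cerebellum *GRIA3* was at 16.5 CPM (30.1 to 41.2) and *GRIK1* at 61.8 CPM (39.1 to 49.3). Its *GRIA2* was at 67.6 CPM in the substantia nigra (155.1 to 205.2) and 436.5 CPM in the hippocampus (619.6 to 763.5). In the putamen its *GRIA1* was at 387.1 CPM (206.7 to 278.9).

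Animal 6 had *GRIA2* at 552.5 CPM (182.8 to 341.7) and *GRIA3* at 94.0 CPM (13.5 to 28.8) in the hypothalamus, where its glutamatergic neuron markers summed to 723 CPM against 107 to 267 CPM in the others, and *GRIK2* at 8.999 CPM (39.5 to 61.0) in the medulla oblongata. Both libraries stood apart. Animal 8 had *GRIA1* at 255.3 CPM (13.3 to 88.6) and *GRIK3* at 36.05 CPM (0.47 to 10.3) in the pituitary, in a library that stood apart, and *GRIK4* at 24.4 CPM (17.2 to 19.9) in the substantia nigra. Animal 7 had *GRIA1* at 865.9 CPM (593.4 to 717.8) in the olfactory bulb, *GRIA2* at 700.5 CPM (443.9 to 563.8) in the striatum, and *GRIK5* at 157.7 CPM (93.9 to 117.0) in the hippocampus and 171.4 CPM (99.4 to 125.0) in the dentate gyrus. Animal 3 had *GRIK2* at 340.1 CPM in the olfactory bulb, in a library that stood apart. Animal 10 had *GRIK4* at 13.01 CPM (15.2 to 17.1) in the cerebellum, and animal 2 *GRIK1* at 30.5 CPM (42.2 to 51.3) in CA3.

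The sex difference of *GRIK1* varied among region groups (edgeR interaction test, FDR = 0.000294) and did not without the pituitary.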

How the results depend on the processing

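Of 68 single results, 59 kept their direction and call under every alternative scored, 9 lost the call under at least 1 of these and 0 reversed. Those scored were DESeq2, each animal left out, sub-region coefficients, no animal block, the study's filter and runs without the libraries that stood apart. A fold above 4 and the run without the pituitary were not scored. The losses were of log2FC near 1. The 9 members differed among sub-regions under every alternative, and the 61 called pairs with region groups became 58 to 64 under all but a fold above 4, which left 11 by its construction. Without the replicate block, that is without the animal in the fit, 58 of these pairs were called. Leaving out 1 animal at a time changed counts as follows: 0 to 1 members in the striatum (0 without animal 6), 0 to 5 pairs for age (5 without animal 7), 0 to 5 for sex (5 without animal 7, 1 without animal 2), 0 to 2 members for the interaction with age (2 without animal 3) and 1 to 3 for that with sex (3 without animal 7, 2 without animal 3). The fit left with fewer animals assumes the same spread. DESeq2 called 3 pairs for age, 2 for sex, 1 member for the age interaction (*GRIK2*) and 2 for the sex interaction, the study's filter called 1 pair for age, the lobe pairs fell from 26 to 15 with no replicate block, and the interaction counts were 1 for age without the libraries that stood apart (*GRIA4*) and 0 for sex without the pituitary. The causes were not tested. The *GRIA2* ratio differed from the cortex in 13 region groups also with no replicate block, in 13 to 14 with 1 animal left out and in 9 against the mean of the other 15 groups. Its alternative per length was not run, since no gene lengths were at hand. A pseudocount of 0.1 moved 1 of 144 levels by over 1 SD. Between TMM and DESeq2 scaling the median of all genes moved by -0.01 to 0.02 (log2). Depth limits *GRIK3* and, in the pituitary, *GRIK1* and *GRIA3* most.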
